A study of Mus musculus with 48 samples.

Results

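Gcnt1 is a single mouse gene on chromosome 19, and the row of the raw count table that carries its Ensembl identifier, ENSMUSG00000038843, is 1 of 55487 rows. It was chosen because earlier results of the same libraries had shown that its level depends on strain, so its strain differences and its levels over culture time and oxygen are given below as descriptions, without a test. The libraries came from kidney slices of male mice, kept alive outside the body, of 2 inbred strains that founded the BXD panel of recombinant lines, C57BL/6J and DBA/2J. Each strain was sampled in 8 conditions with 3 libraries each, which makes 48 libraries in 16 groups. The conditions were control slices at 6 and 24 h, tunicamycin (a natural product that blocks the first step of N-glycosylation) at 6 and 24 h, cyclosporin A (a calcineurin inhibitor with known renal toxicity) at 6 and 24 h, and a pair of oxygen conditions, normoxia and normoxia followed by hyperoxia, which the labels present as models of ischemia and of reperfusion, both at 24 h. Drug doses, oxygen levels and the age of the mice were not given in the sources used here. The labels name no engineered allele in any group. The labels number the libraries of a group as biological replicates but do not say whether they came from separate mice, so the errors and p-values below measure the spread between these libraries.

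Gcnt1 encodes core 2 beta-1,6-N-acetylglucosaminyltransferase, a Golgi enzyme. Mucin-type O-glycans begin when a GALNT enzyme adds N-acetylgalactosamine to serine or threonine; C1galt1, with its chaperone C1galt1c1, adds galactose to give core 1, and the Gcnt1 enzyme then adds a branching N-acetylglucosamine to give core 2. Core 2 branches carry lactosamine chains that can be fucosylated and sialylated, and they are known from selectin ligands on leukocytes. In mouse kidney the same enzyme is also known to branch a globo-series glycolipid of the tubules, and DBA/2 mice are known as a strain whose kidney lacks that branched glycolipid.

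The gene lies on the minus strand of GRCm38 at chr19:17326141-17372844 and is annotated as protein coding. GENCODE M21 lists 5 transcripts, of which 4 are coding, with 4 distinct first exons. Each coding transcript holds the whole reading frame in 1 shared exon, from position 17329073 to 17330359, which is 1287 bases for 428 residues. The transcripts therefore differ in their non-coding upstream exons, and a count per gene cannot tell which start a read came from. RefSeq (GRCm38.p6) lists 3 starts, and the 250 bases before the most distal one and before the next are printed here because the gene-level values below sum over both. The first window lies at chr19:17372845-17373094 and the second at chr19:17356668-17356917, both read on the minus strand from 5′ to 3′ with the start just after the last base. Capitals mark TATAAA on either strand, the only match among the 7 motifs searched.
Start of Gcnt1-205: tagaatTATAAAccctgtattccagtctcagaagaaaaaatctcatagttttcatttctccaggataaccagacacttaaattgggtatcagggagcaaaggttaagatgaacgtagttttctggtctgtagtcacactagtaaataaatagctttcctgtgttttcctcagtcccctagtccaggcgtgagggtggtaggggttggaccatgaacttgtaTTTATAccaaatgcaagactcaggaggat
Start of Gcnt1-202 and Gcnt1-203: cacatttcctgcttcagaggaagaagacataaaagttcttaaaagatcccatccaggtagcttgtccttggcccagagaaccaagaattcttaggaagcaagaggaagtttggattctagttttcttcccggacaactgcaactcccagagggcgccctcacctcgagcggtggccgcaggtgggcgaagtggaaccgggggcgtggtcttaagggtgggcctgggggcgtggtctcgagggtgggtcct
The 2 windows differ in base composition. The first has 2 CpG dinucleotides, a GC content of 40.4% and TATAAA matches whose bases nearest the start lie 239 and 24 bases before it. The second has 10 CpG dinucleotides and a GC content of 55.6%, and held none of the motifs. Over 32851 RefSeq promoters of the same length the median was 6 CpG dinucleotides, and TATAAA was found on either strand in 12.37% of them. The other motifs searched on both strands were GGGCGG (in 32.74% of promoters), ACGTG (16.57%), GTTAAT (6.432%), AGGTCA (14.02%), TGANTCA (6.749%) and TGACGTCA (1.546%). A match describes letters only. The third RefSeq start, with 2 CpG dinucleotides in its window, overlaps an annotated first exon and is not printed.

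The libraries held between 5619309 and 25137581 counts (median 19607361), and the lowest, replicate 2 of DBA/2J in normoxia-hyperoxia, stood apart from the next lowest at 12384733. The tissue label was checked with markers. All 12 proximal tubule markers were detected in every group, and their summed level differed widely between groups (given with Gcnt1 below). The mitochondrial share of counts was also unequal, at 23.9% in C57BL/6J and 12.3% in DBA/2J under normoxia. The labels name no sequencing batch. Sample titles give the drug series and the oxygen series different study names, and these cannot be told apart from the oxygen conditions themselves. In whole slices, fewer cells of a type and less RNA per cell cannot be told apart either.

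Gcnt1 spanned a 149.9-fold range of group means, in CPM (each gene's count divided by the library's total and scaled to a common total). The extremes were the same culture condition in the 2 strains. C57BL/6J slices in normoxia had the highest mean, 310 ± 30.9 CPM (SD, n = 3), from libraries at 277, 313 and 339 CPM. DBA/2J slices in normoxia had the lowest, 2.06 ± 1.11 CPM, from libraries at 3.28, 1.82 and 1.09 CPM, which stood for only 80, 35 and 26 counts against 6336, 6315 and 6639 counts in C57BL/6J. No other group came near either value.

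The 14 other groups fell between 14.8 and 110 CPM. Control slices at 6 h had 98.3 ± 18.5 CPM in C57BL/6J, from libraries at 107, 77.1 and 111 CPM. In DBA/2J they had 52.2 ± 6.42 CPM, from 58.6, 52.2 and 45.8 CPM. At 24 h the order of the strains was the opposite. C57BL/6J controls at 24 h had 21.95 ± 2.38 CPM (19.2, 23.6 and 23.1 CPM), and DBA/2J controls had 30.6 ± 2.39 CPM (28.3, 30.4 and 33.1 CPM). Normoxia-hyperoxia slices had 14.8 ± 2.49 CPM in C57BL/6J (13.5, 17.7 and 13.2 CPM) and 34.1 ± 4.23 CPM in DBA/2J (29.5, 34.9 and 37.9 CPM). Set in order of their means, 11 of the 15 neighbouring pairs of groups had overlapping libraries. The 4 breaks lay below C57BL/6J normoxia, between DBA/2J control 6 h and DBA/2J normoxia-hyperoxia, between DBA/2J and C57BL/6J controls at 24 h, and above DBA/2J normoxia.

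**Figure D1:**
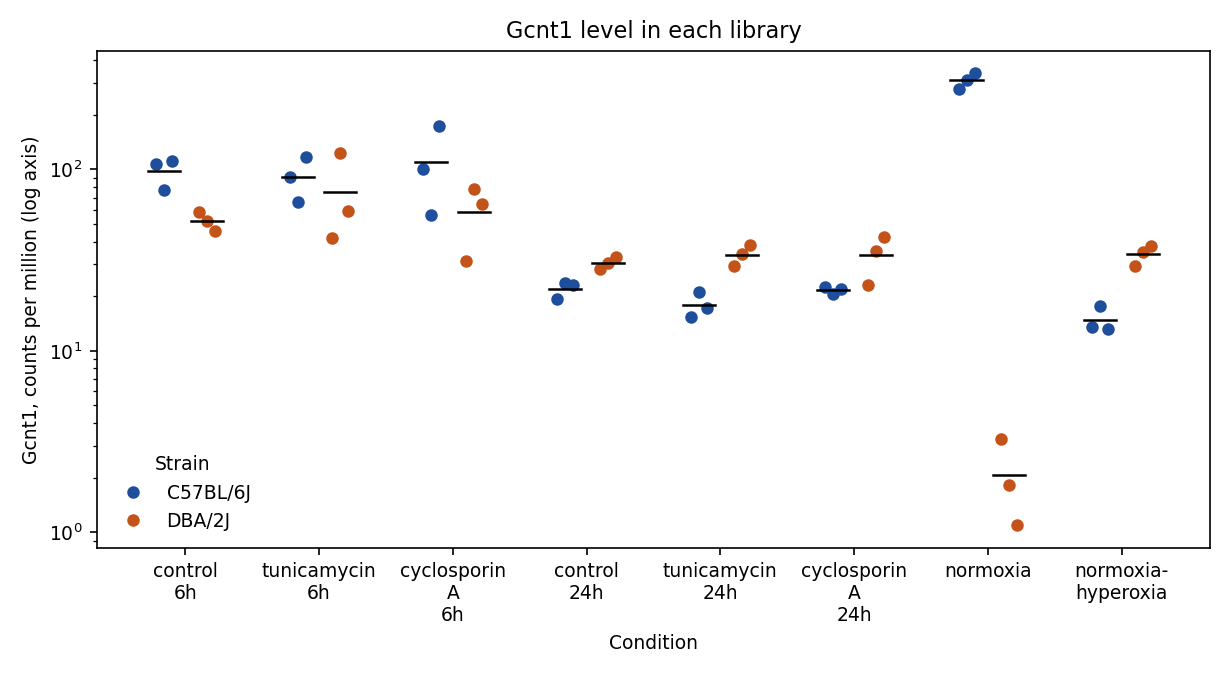
Gcnt1 level in each of the 48 libraries (log axis, CPM), with conditions along the horizontal axis, 1 colour per strain, points for libraries and bars for the group mean. C57BL/6J normoxia (277 to 339 CPM) and DBA/2J normoxia (1.09 to 3.28 CPM) lie at the top and the bottom of the plot.

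The strain difference (DBA/2J minus C57BL/6J, log2 scale, edgeR estimate with its standard error) changed sign with the condition. It was -1.06 (SE 0.128) in control slices at 6 h, 0.45 (SE 0.134) in control slices at 24 h, -7.16 (SE 0.254) in normoxia and 1.08 (SE 0.136) in normoxia-hyperoxia. The SE depends on which 12 libraries share the fit: over the fits that hold these controls it ran from 0.128 to 0.374 for the 6 h difference, and the 24 h difference was 0.41 (SE 0.195, 95% interval -0.01 to 0.84) in the fit with normoxia. In each of these 4 conditions the 3 libraries of a strain did not overlap those of the other. The background for that property was high: the libraries of the strains did not overlap for 43.9% of genes tested in control 6 h, 40.9% in control 24 h, 57.4% in normoxia and 38.4% in normoxia-hyperoxia. By size, the normoxia difference of Gcnt1 ranked 60 among 17375 genes. Gcnt1 was chosen on its strain dependence, so this rank and those given below describe it and test nothing.

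The drug-treated slices kept the sign of their time point. At 6 h the difference was -0.39 (SE 0.315) with tunicamycin and -1.07 (SE 0.373) with cyclosporin A, and the strains' libraries overlapped in both. At 24 h it was 0.87 (SE 0.137) with tunicamycin, where 35% of genes did not overlap, and 0.54 (SE 0.167) with cyclosporin A, where 37.1% did not. The libraries of Gcnt1 did not overlap in either. By these estimates DBA/2J was lower at 6 h and in normoxia, and higher in each of the 4 other conditions at 24 h. Expressed per tubule marker, as given below, the DBA/2J mean was the lower one in every condition.

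**Figure D2:**
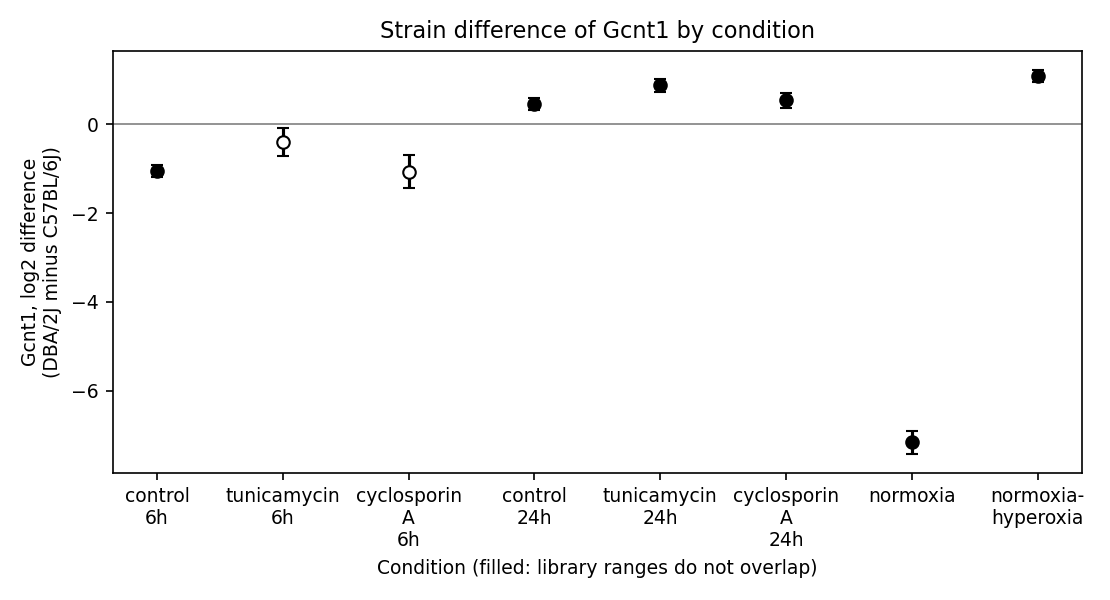
Log2 difference of Gcnt1 between DBA/2J and C57BL/6J in each of the 8 conditions (points, with bars of 1 standard error from the edgeR fit), filled where the library ranges of the strains do not overlap. The points lie below 0 in the conditions at 6 h and in normoxia (-7.16) and above 0 in the other conditions at 24 h.

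Between 6 and 24 h of control culture Gcnt1 was lower at 24 h in both strains, by unequal amounts. The log2 change was -2.43 (SE 0.136) in C57BL/6J and -0.93 (SE 0.131) in DBA/2J. Libraries of the 2 times did not overlap in either strain, a property shared by 68.7% of genes in C57BL/6J and 69.2% in DBA/2J. Read against the control slices at 24 h, normoxia was higher by 4.04 (SE 0.204) in C57BL/6J, a 14.1-fold ratio of means, and 14.8-fold lower in DBA/2J, with a log2 change of -3.54 (SE 0.249). In that comparison 79.6% of genes in C57BL/6J and 77.0% in DBA/2J had libraries that did not overlap. The 2 changes differed by -7.57 (SE 0.317), which ranked 7 by size among 17375 genes.

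The C57BL/6J normoxia level was also above that of the 6 h controls, and the DBA/2J level below it. Against 6 h controls the change was 1.58 (SE 0.202) in C57BL/6J, a 3.15-fold ratio, and -4.53 (SE 0.266) in DBA/2J, a 25.3-fold lower mean. Libraries did not overlap in either strain, as for 58.9% and 64.7% of genes in C57BL/6J and DBA/2J. These comparisons share the normoxia libraries with those against 24 h controls. The changes differed between strains by -6.11 (SE 0.335), rank 4 by size.

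Slices in normoxia-hyperoxia had Gcnt1 much nearer the level of the 24 h controls in both strains. From normoxia to normoxia-hyperoxia the change was -4.38 (SE 0.237) in C57BL/6J, 20.9-fold lower, and 3.85 (SE 0.280) in DBA/2J, 16.5-fold higher. The share of genes without overlap was 67.2% in C57BL/6J and 71.7% in DBA/2J. The difference between those changes, 8.23 (SE 0.363), ranked 2 among 17228 genes. Against 24 h controls, normoxia-hyperoxia differed by -0.37 (SE 0.135) in C57BL/6J, without overlap (67.4% of genes), and by 0.30 (SE 0.132) in DBA/2J, with overlap (62.9% of genes had none). Against 6 h controls it was lower in both strains, with changes of -2.77 (SE 0.158) in C57BL/6J and -0.62 (SE 0.151) in DBA/2J, and without overlap, as for 36.5% and 50.3% of genes. Without DBA/2J replicate 2, the library of lowest depth, the DBA/2J change was 3.84 from normoxia and 0.30 from 24 h controls, and the strain difference in normoxia-hyperoxia was 1.08.

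DBA/2J replicate 1 carried the highest of the 3 normoxia values in that strain and moved the size of these differences, not their sign. Without it the DBA/2J normoxia mean of Gcnt1 was 1.46 CPM, and the strain difference was -7.72. The change from 24 h controls in DBA/2J was then -4.10 and from normoxia to normoxia-hyperoxia 4.41. Without replicate 2 or 3 the mean was 2.18 or 2.55 CPM.

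Whether the drugs moved Gcnt1 was tested, since the gene was chosen on its strain dependence and not on a drug effect. Earlier results of these data were known when the tests were chosen. The tests also share the control libraries with the strain differences above. Tunicamycin and cyclosporin A were each compared with control slices of the same time, within each strain, over both strains, and as the difference between strains. None of the 16 tests passed an adjusted p of 0.05 in edgeR's quasi-likelihood test with Benjamini-Hochberg adjustment over all genes. The smallest adjusted p was 0.734. Unadjusted, 2 tests had p under 0.05, and DESeq2 made 0 calls. Calls were rare for any gene: in both drugs at 6 h and in cyclosporin A at 24 h, 0% of genes passed, and with tunicamycin at 24 h 1.38% passed over both strains and 0.237% in DBA/2J.

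At 6 h the drug-treated libraries were scattered. With tunicamycin Gcnt1 was at 90.5, 66.4 and 117 CPM in C57BL/6J against 42.03, 124 and 58.9 CPM in DBA/2J. With cyclosporin A it was at 100, 55.8 and 173 CPM in C57BL/6J against 31.2, 78.0 and 64.8 CPM in DBA/2J. Every one of these groups overlapped its control. The tunicamycin effect was -0.13 in C57BL/6J (95% interval -0.81 to 0.56) and 0.54 in DBA/2J (-0.15 to 1.23). The cyclosporin A effect over both strains was 0.18 (-0.39 to 0.76). With the libraries taken as unpaired, changes of those sizes were not detectable at this spread.

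At 24 h the libraries lay closer together. C57BL/6J slices had Gcnt1 at 15.3, 21.1 and 17.3 CPM with tunicamycin and at 22.4, 20.7 and 21.9 CPM with cyclosporin A. DBA/2J slices had 29.3, 34.1 and 38.4 CPM with tunicamycin and 23.1, 35.3 and 42.3 CPM with cyclosporin A. Again each group overlapped its control. The tunicamycin effect was -0.30 in C57BL/6J (95% interval -0.60 to -0.0018; unadjusted p = 0.0488, adjusted p = 0.809 by edgeR) and 0.17 in DBA/2J (-0.12 to 0.46). The difference between those effects was 0.47 (0.06 to 0.89), with an unadjusted p of 0.029 and an adjusted p of 0.999 in edgeR's test. Cyclosporin A gave 0.04 over both strains (-0.22 to 0.29). Intervals that hold 0 do not show that a drug left the gene as it was.

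Proximal tubule markers moved with several of these differences. Their summed level was 7190 CPM in C57BL/6J normoxia (5580 to 8079 CPM) and 14372 CPM in DBA/2J normoxia (13776 to 15391 CPM), and none of the 12 was at 0. In control slices it was 4048 CPM at 6 h and 551 CPM at 24 h in C57BL/6J (2555 to 5207 and 412 to 629 CPM), and 7051 and 1683 CPM in DBA/2J (6691 to 7758 and 1033 to 2227 CPM). In normoxia-hyperoxia it was 234 CPM (173 to 309 CPM) in C57BL/6J against 781 CPM (650 to 978 CPM) in DBA/2J. In C57BL/6J these 4 groups were thus in the order of their Gcnt1 levels, while in DBA/2J the group with the highest marker level had the lowest Gcnt1 level.

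Gcnt1 was also expressed per 1000 CPM of the marker sum. In C57BL/6J that ratio was 25.3 in control 6 h, 40.6 in control 24 h, 44.4 in normoxia and 65.3 in normoxia-hyperoxia, a far narrower span than that of the CPM. In DBA/2J it was 7.49, 20.2, 0.147 and 45.8 in the same order. The strain difference of Gcnt1 in normoxia was therefore larger per marker than per total count. In 24 h controls, where DBA/2J was higher in CPM, it was lower per marker, with libraries of 12.7 to 29.5 against 37.4 to 46.6 in C57BL/6J. Per marker the DBA/2J mean was the lower one in each of the 8 conditions, so the change of sign seen in CPM was absent. The libraries of the strains overlapped per marker in normoxia-hyperoxia, under both drugs at 24 h and under tunicamycin at 6 h. Under tunicamycin at 24 h the C57BL/6J mean of 35.4 (23.5 in DBA/2J) rests on replicate 3 at 65.2, and without it the mean was 20.6, so the direction turned. The marker lists also differed for other segments: the loop of Henle list summed to 11202 CPM in C57BL/6J normoxia against 2771 CPM in DBA/2J normoxia, and the leukocyte list to 130 and 101 CPM. In every other condition the leukocyte mean was higher in DBA/2J, also at 6 h, where Gcnt1 was lower in DBA/2J. With C57BL/6J first, it was 101 and 125 CPM in 6 h controls and 136 and 203 CPM in 24 h controls. In normoxia-hyperoxia it was 134 and 244 CPM. The part of the cell mixture in the Gcnt1 values was not tested.

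The scatter at 6 h ran differently in the strains. Replicate 2 had the lowest marker sum in each of the 3 groups at 6 h in both strains, and in C57BL/6J the lowest Gcnt1 value in each as well, with replicate 3 the highest. Among C57BL/6J libraries at 6 h the highest Gcnt1 value, 173 CPM in cyclosporin A replicate 3, came with the highest marker sum, 5910 CPM. The lowest, 55.8 CPM in cyclosporin A replicate 2, came with the lowest sum, 1711 CPM. Among DBA/2J libraries the highest Gcnt1 value, 124 CPM in tunicamycin replicate 2, came instead with the lowest marker sum, 4856 CPM. The library with the highest marker sum there, 8266 CPM, had Gcnt1 at 42.03 CPM.

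Over the 8 conditions the Gcnt1 profiles of the strains ran apart in normoxia. On group means of log2 CPM the profile spanned 4.403 in C57BL/6J and 5.003 in DBA/2J, and Pearson's r between the strains was -0.41 (Spearman's rho 0.02). Of 10729 genes whose group means spanned at least 1 in each strain, the median r was 0.92, and 43 genes (0.401%) had an r at or below that of Gcnt1. Since the gene was chosen on its strain dependence, that share is a description and not a test. The negative value rests on normoxia: over the other 7 conditions the r of Gcnt1 was 0.92 (rho 0.54), beside a median of 0.90 over the same genes, and 55.8% of them were at or below Gcnt1.

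The genes most like Gcnt1 were taken as those with the highest Pearson r of log2 group means, among 11477 genes compared. Over C57BL/6J's 8 means these included Cldn2 (r = 0.9985), a claudin of the proximal tubule's tight junctions, Pter (0.998), Acsm3 (0.9977), a medium-chain acyl-CoA synthetase, and Acp5 (0.9972), an acid phosphatase. In DBA/2J these 4 genes had r from -0.41 to -0.28 with Gcnt1 over means that include normoxia, and their r there without it is not given here. The mean of each of the 4 was lower in DBA/2J controls at 24 h than at 6 h, as was that of Gcnt1. For Cldn2 it was 170 CPM at 6 h and 27.7 CPM at 24 h. Cldn2 stood at 230 CPM in C57BL/6J normoxia against 12.5 CPM in its 24 h controls, and at 486 against 27.7 CPM in DBA/2J, so it was higher in normoxia in both strains, unlike Gcnt1. Without the normoxia groups the r of these 4 genes in C57BL/6J lay between 0.996 and 0.997.

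In DBA/2J the closest genes were others. Over its 8 means they were Nab2 (r = 0.9974), a corepressor of EGR factors, Bhlhe40 (0.9954) and Nr1d1 (0.9924), repressors of the circadian clock, Pfkfb3 (0.993), which makes the activator of glycolytic phosphofructokinase, and Tpm2 (0.9929), a tropomyosin. In C57BL/6J those had r from -0.41 to 0.20 with Gcnt1 over means that include normoxia. The mean of each of these 5 genes was lower in C57BL/6J controls at 24 h than at 6 h, as was that of Gcnt1. Bhlhe40 stood at 47.4 CPM in DBA/2J normoxia against 570 CPM in its 24 h controls, and was also low in C57BL/6J normoxia, at 56.5 against 783 CPM. Without the normoxia groups the r of these 5 in DBA/2J lay between 0.930 and 0.974. At r of 0.95 or more, 667 genes matched Gcnt1 in C57BL/6J and 112 in DBA/2J, and 0 were in both. Without the normoxia groups the counts were 628 and 441, and how many of those were in both was not counted. Over all 16 means no gene reached 0.95, and the closest were Col23a1, Col16a1 and Mfrp (each 0.81), then Dbp and Macc1 (each 0.80).

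**Figure D3:**
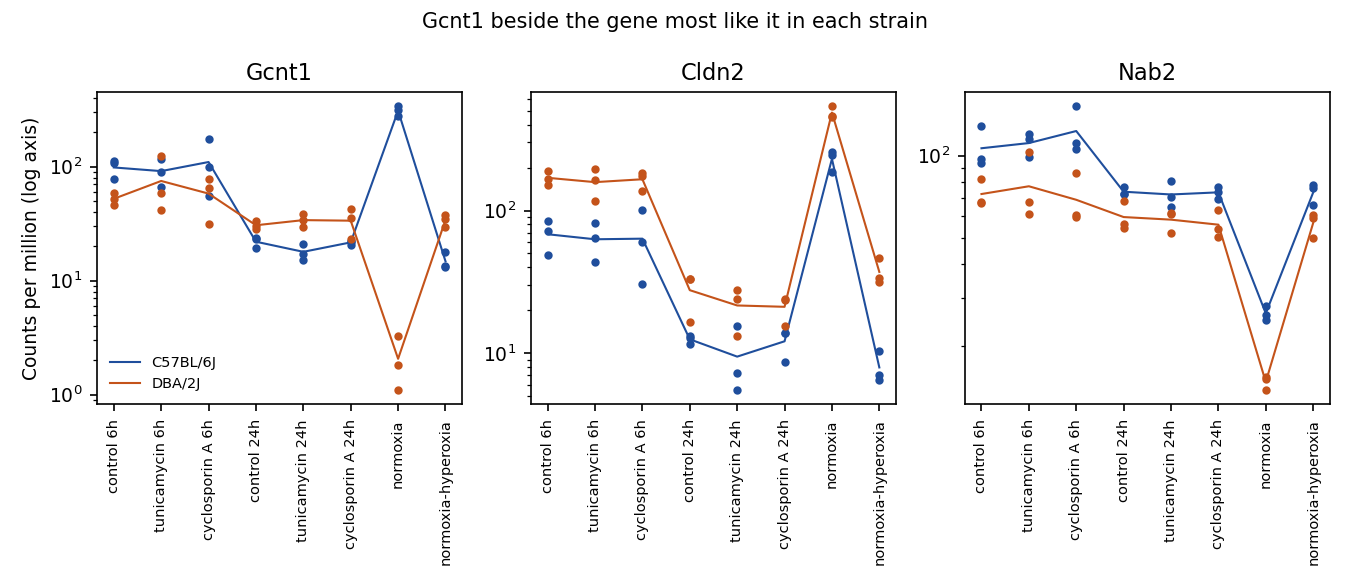
Level of Gcnt1, Cldn2 and Nab2 (log axis, CPM) over the 8 conditions, with points for libraries, lines through the group means and 1 colour per strain. In normoxia Cldn2 is high and Nab2 low in both strains, while Gcnt1 follows Cldn2 in C57BL/6J (r = 0.9985) and Nab2 in DBA/2J (r = 0.9974).

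The relatives of Gcnt1 in the same enzyme family were read beside it. Gcnt2 makes the branched I antigen, Gcnt4 is another core 2 enzyme, and Gcnt3 is the core 2 enzyme of mucin-secreting epithelia. Per kilobase of exon, Gcnt1 was at 53.7 CPM in C57BL/6J normoxia against 0.358 CPM in DBA/2J normoxia, Gcnt2 at 7.27 and 8.28 CPM, and Gcnt4 at 1.28 and 0.387 CPM. In 24 h controls, Gcnt2 (9.49 CPM per kilobase in C57BL/6J and 8.08 in DBA/2J) was above Gcnt1 (3.81 and 5.31). Gcnt3 and Gcnt7 were too low to test in any comparison. In DBA/2J normoxia the libraries of Gcnt1 (0.190 to 0.569 CPM per kilobase) overlapped those of Gcnt4 (0.338 to 0.475), while in C57BL/6J normoxia Gcnt1 was above both relatives.

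Gcnt2 was higher in normoxia-hyperoxia in both strains. Its libraries had 195, 186 and 183 CPM in C57BL/6J, where its 24 h controls had 70.6, 65.2 and 64.8 CPM. In DBA/2J they had 117, 151 and 153 CPM, and the 24 h controls 53.2, 64.2 and 53.5 CPM. Neither strain's libraries overlapped their controls. The rise over both strains was 1.56 on the log2 scale (edgeR adjusted p = 1.77e-10), and 68.2% of all genes passed in that comparison. In normoxia Gcnt2 had 54.3, 50.3 and 49.2 CPM in C57BL/6J against 59.1, 57.5 and 58.6 CPM in DBA/2J. Its strain difference there, 0.24 (SE 0.0848, adjusted p = 0.0326; 47.2% of genes passed), was higher in DBA/2J, opposite to Gcnt1, and small. It did not pass without any 1 of 9 of the 12 libraries in the fit (values from 0.18 to 0.26, largest adjusted p = 0.111). In 6 h controls Gcnt2 was lower in DBA/2J by -0.50 (adjusted p = 0.00288) and in normoxia-hyperoxia by -0.54 (adjusted p = 0.00141).

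Gcnt4 was the relative whose strain difference had the sign of Gcnt1 in normoxia. Its libraries had 4.94, 6.64 and 7.96 CPM in C57BL/6J against 2.42, 1.72 and 1.77 CPM in DBA/2J. The difference was -1.66 (SE 0.229, edgeR adjusted p = 3.71e-05). Unlike that of Gcnt1, it had the same sign in the other control and oxygen conditions: -0.95 in 24 h controls (adjusted p = 0.0217) and -0.97 in normoxia-hyperoxia (adjusted p = 0.00283), with -0.65 in 6 h controls not passing (adjusted p = 0.0929). The 24 h call was lost without C57BL/6J control replicate 2 (adjusted p = 0.0676) or 3 (0.0581) or DBA/2J control replicate 1 (0.0982). The 6 h difference passed without DBA/2J control 6 h replicate 1 (adjusted p = 0.0364).

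The pathway around Gcnt1 was read from 74 genes: the 4 relatives Gcnt2, Gcnt3, Gcnt4 and Gcnt7, and genes for O-glycan initiation, cores, extension and capping, globo-series lipid synthesis and breakdown, and sugar donor supply, Gcnt1 itself left out. Of these, 66 were tested in the strain comparisons of control and oxygen conditions, and 7 (Gcnt3, Gcnt7, Galnt5, Galnt13, St6galnac1, Fut7 and Chst4) in none. DBA/2J differed from C57BL/6J for 28 of 66 in 6 h controls, against 26.2% of all genes tested. Of them 18 were higher (13.6% of all genes) and 10 lower (12.7%). In 24 h controls 23 passed (22.2% of all genes), 15 higher (13.9%) and 8 lower (8.27%). In normoxia 46 passed (47.2% of all genes), 27 higher (27.5%) and 19 lower (19.7%). In normoxia-hyperoxia 25 passed (23.7% of all genes), 15 higher (12.2%) and 10 lower (11.5%). The 24 h count was 15 without DBA/2J control replicate 1. The normoxia-hyperoxia count was 21 without the DBA/2J library of lowest depth. The median difference of the list was near that of all genes, 0.08 against 0.06 in normoxia. Scaled by total counts only, the normoxia-hyperoxia split was 17 higher and 7 lower.

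The list of initiating GALNT enzymes, which add the first sugar, had 15 members tested in normoxia. Of these, 8 were higher in DBA/2J and 3 lower, where 27.5% of all genes were higher and 19.7% lower. Galnt3 was at 28.1, 19.9 and 26.6 CPM in C57BL/6J against 94.5, 79.8 and 91.6 CPM in DBA/2J, a difference of 1.88 (SE 0.140, edgeR adjusted p = 3.52e-07) without overlap. Galnt15 was lower, by -1.20 (adjusted p = 0.00374), and Galnt9, with at most 40 counts in a library, was higher by 2.09 (adjusted p = 0.00547). The core list holds the makers of the Gcnt1 substrate and of core 3, and its 3 tested members did not pass in normoxia. The core 1 enzyme C1galt1 was at 62.9 ± 8.74 CPM in C57BL/6J against 59.6 ± 4.17 CPM in DBA/2J (SD, n = 3), a difference of -0.03 (SE 0.102, adjusted p = 0.857), and its chaperone C1galt1c1 differed by 0.23 (SE 0.0954, adjusted p = 0.061). B3gnt6, the core 3 enzyme, had very low counts (-0.96, adjusted p = 0.462). In 6 h controls 2 of the 3 core genes passed (26.2% of all genes). C1galt1 was higher in DBA/2J by 0.36 (edgeR adjusted p = 0.0174), and B3gnt6 differed by -3.95 (adjusted p = 0.011). In 24 h controls and in normoxia-hyperoxia 0 of the 3 passed (22.2% and 23.7% of all genes).

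Among the extension and capping enzymes, which build on the cores, 5 of 21 were higher and 10 lower in DBA/2J normoxia (27.5% and 19.7% of all genes). B3gnt3, which extends core 1, had the largest difference of its list. It was at 5.60, 8.27 and 6.63 CPM in C57BL/6J against 0.573, 0.417 and 0.379 CPM in DBA/2J, a difference of -3.83 (SE 0.296, adjusted p = 1.45e-07). B3gnt3 was lower in DBA/2J in the control and hyperoxia conditions as well, by -3.70 in 6 h controls (adjusted p = 5.41e-07), -3.04 in 24 h controls (adjusted p = 1.13e-06) and -3.56 in normoxia-hyperoxia (adjusted p = 3.43e-06). St6galnac2, a sialyltransferase of O-glycans, was higher by 1.14, and Fut9, which makes Lewis x, by 0.98. The adjusted p-values are those of edgeR's quasi-likelihood test.

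For the globo-series lipids, 3 of 6 synthesis genes were higher and 2 lower in DBA/2J normoxia, where 27.5% of all genes were higher and 19.7% lower. B3galnt1, which makes globoside, was at 8.03 ± 1.74 CPM in C57BL/6J against 20.5 ± 1.99 CPM in DBA/2J (SD, n = 3), a difference of 1.40 (SE 0.153, edgeR adjusted p = 4.45e-06). B3galt5, which extends globoside, was at 24.5 ± 2.58 and 52.2 ± 3.61 CPM, a difference of 1.14, while A4galt, which makes the globotriaosyl precursor, differed by -0.62. Against the same shares of all genes, 4 of 7 breakdown genes were higher, among them Gm2a (0.92) and Psap (0.86), which are activators of lysosomal lipid digestion. Of 12 sugar donor genes 6 were higher, with Renbp at 1.27 and Amdhd2 at 1.09, and 3 lower, with Gfpt2 at -1.28. In normoxia-hyperoxia, where the Gcnt1 level was the higher one in DBA/2J, 2 of the 6 synthesis genes were higher in DBA/2J and 2 lower (12.2% and 11.5% of all genes). B3galnt1 (1.12) and B3galt5 (1.68) were the higher ones, and A4galt (-0.66) was among the lower. Leaving out 1 library at a time, the A4galt call held in 10 of 12 fits (values from -0.86 to -0.41).

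**Figure D4:**
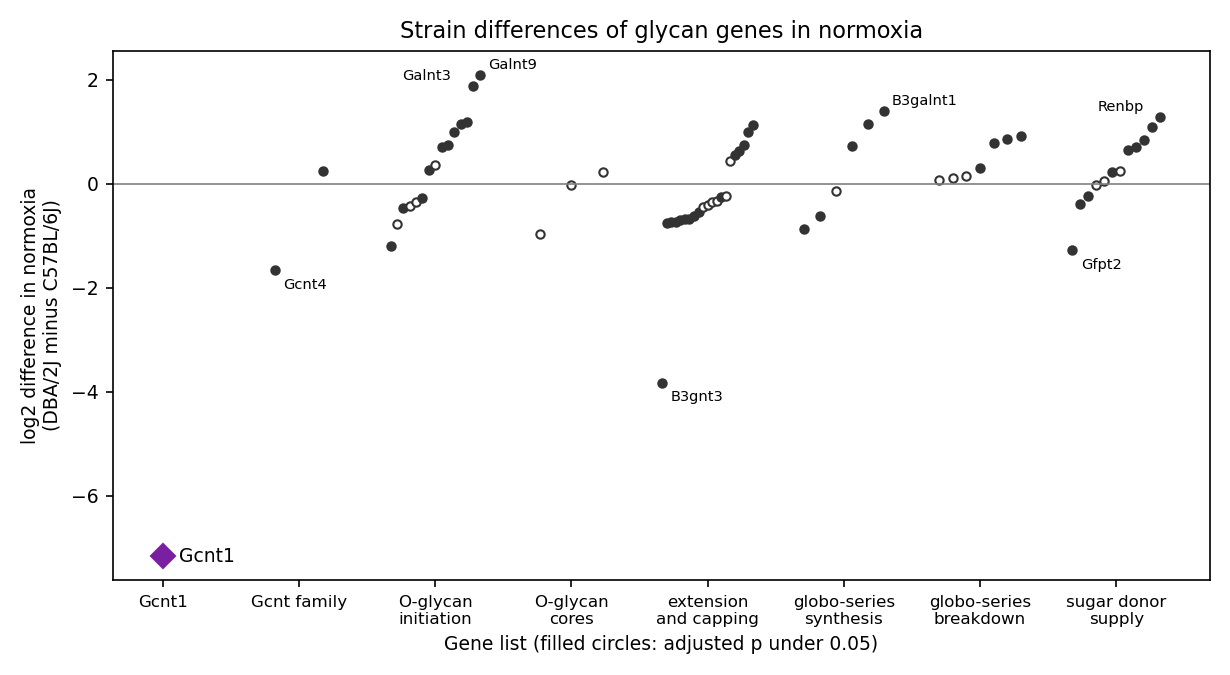
Log2 difference between DBA/2J and C57BL/6J in normoxia for each tested gene of the glycan lists, grouped by list, filled where the adjusted p is under 0.05, with Gcnt1 as a diamond. Gcnt1 (-7.16) lies farthest from 0, and B3gnt3 (-3.83) is the next lowest.

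The strain difference in the response to normoxia was tested for the same 66 genes as an interaction. It passed for 12, of which 9 were positive and 3 negative (10.1% and 6.88% of all genes; 17% passed in all). In 1 fit of 48 libraries it passed for 6, and leaving out 1 library at a time for 9 to 15. Galnt3 had the largest, 1.57 (SE 0.193, edgeR adjusted p = 0.000235). It fell to 24.9 ± 4.37 CPM in C57BL/6J normoxia from 69.3 ± 5.52 CPM in 24 h controls, and was at 88.7 ± 7.77 against 89.9 ± 14.1 CPM in DBA/2J. Chst2, a sulfotransferase, had -1.18 (SE 0.308, adjusted p = 0.0218) and lost its call without C57BL/6J normoxia replicate 2 (adjusted p = 0.0543). B3galnt1 had 1.01 (SE 0.260, adjusted p = 0.0161) and lost its call without control 24 h replicate 3 of C57BL/6J (0.0543) or DBA/2J (0.0675). That of Gcnt1, -7.57, is given as a description only.

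Across both strains most of the pathway moved with time and oxygen, as did most genes. Between 6 and 24 h, 49 of 66 passed (72% of all genes), of which 16 rose (34.7%) and 33 fell (37.4%), or 22 and 27 with total counts only. In normoxia against 24 h controls 56 passed (82% of all genes), 33 higher (42.4%) and 23 lower (39.7%), or 26 and 32 with total counts only. The higher ones included Fut9 (4.18), B3galt5 (4.36), the ganglioside activator Gm2a (2.15) and C1galt1 (0.87). In normoxia-hyperoxia against 24 h controls 49 passed (68.2% of all genes), 26 higher (34.1%) and 23 lower (34.1%), or 21 and 28 with total counts only. Without the library of lowest depth the count was 42. Against normoxia 51 of 64 passed (73.5% of all genes), 26 higher (37%) and 25 lower (36.5%). Under tunicamycin at 24 h, 0 of 64 passed over both strains in edgeR (1.38% of all genes), with 8 at an unadjusted p under 0.05 and 0 calls in DESeq2. The replicate block did make a call, as given with the processing below.

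Genes next to Gcnt1 on chromosome 19 were read for comparison. Within 1 Mb of the gene 27 others are annotated, and 7 were tested. The nearest tested on the one side is Prune2 at chr19:16956118-17223932, 102 kb away, and on the other Rfk, the riboflavin kinase, at chr19:17394043-17401349, 21.2 kb away. The strains differed for 1 of the 7 in 6 h controls (26.2% of all genes), 2 in 24 h controls (22.2%), 4 in normoxia (47.2%) and 2 in normoxia-hyperoxia (23.7%). The 6 h count was 2 without C57BL/6J control 24 h replicate 1 or DBA/2J control 24 h replicate 2 or 3, which share its fit, and 3 without C57BL/6J control 6 h replicate 1. The 24 h and normoxia-hyperoxia counts were 1 without the libraries named for Gna14 and Vps13a below.

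Prune2 was higher in DBA/2J throughout. In normoxia it was at 1.88, 2.28 and 2.04 CPM in C57BL/6J against 8.47, 8.34 and 7.36 CPM in DBA/2J, a difference of 2.01 (SE 0.172, edgeR adjusted p = 4.18e-07). In 24 h controls it was at 0.796, 0.464 and 0.485 CPM against 16.3, 20.6 and 20.1 CPM, a difference of 4.96 (SE 0.2502, adjusted p = 3.6e-09). In 6 h controls the difference was 2.84 (adjusted p = 2.1e-07) and in normoxia-hyperoxia 3.41 (adjusted p = 1.11e-07). Its strain difference was thus opposite in sign to that of Gcnt1 in 6 h controls and normoxia, and of the same sign in 24 h controls and normoxia-hyperoxia.

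Rfk, the closest tested gene, had levels of 93.7 ± 5.36 CPM in C57BL/6J normoxia against 78.2 ± 5.37 CPM in DBA/2J normoxia (SD, n = 3). The difference was -0.21 (SE 0.0728, edgeR adjusted p = 0.0248), and its call was lost without C57BL/6J normoxia replicate 2 (adjusted p = 0.0812) or 3 (0.081) or DBA/2J normoxia replicate 3 (0.125). Gna14, a G protein subunit 715 kb away, was higher in DBA/2J normoxia by 1.35 (adjusted p = 2.12e-05) and in 24 h controls by 1.06 (adjusted p = 0.0129). The 24 h call was lost without C57BL/6J control replicate 1 (adjusted p = 0.0706) or DBA/2J control replicate 3 (0.0649). Pcsk5, a proprotein convertase 59.5 kb away, was lower by -0.61 in DBA/2J normoxia (adjusted p = 9e-04). Vps13a was lower by -0.46 in normoxia-hyperoxia (adjusted p = 0.0261), and lost its call without replicate 1 of C57BL/6J (0.117) or replicate 1 or 2 of DBA/2J (0.113 and 0.0565) in that condition.

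**Figure D5:**
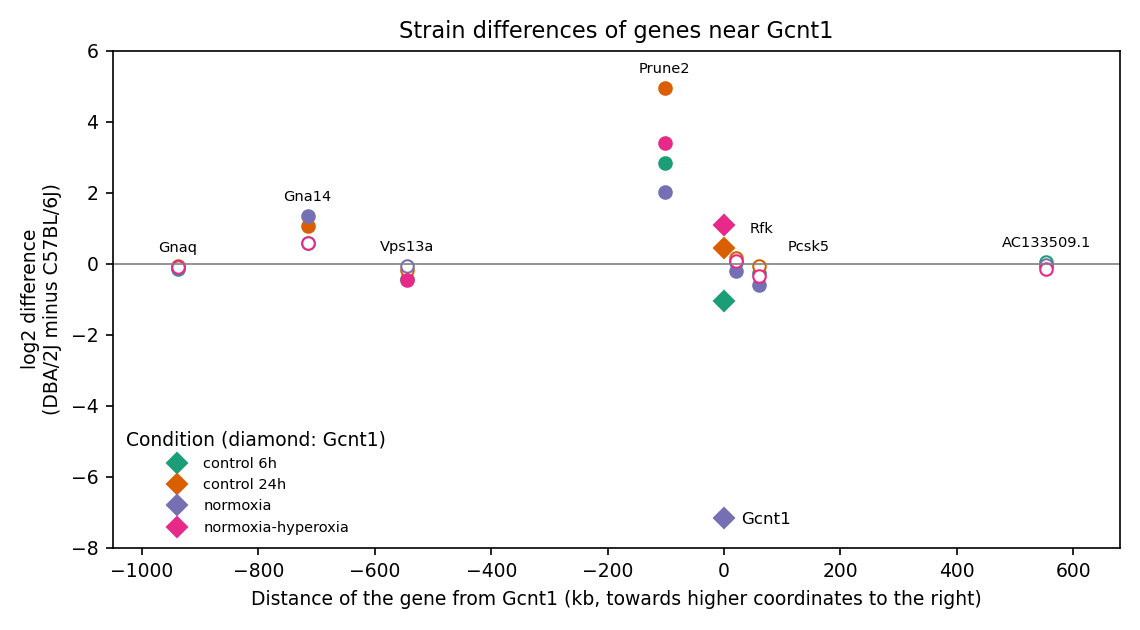
Log2 strain difference (DBA/2J minus C57BL/6J) of Gcnt1 (diamonds) and of the tested genes within 1 Mb of it (circles, filled where the adjusted p is under 0.05) against their distance from the gene in kb, with 1 colour for each of 4 conditions. Gcnt1 is at -7.16 in normoxia, while Rfk, at 21.2 kb, is at -0.21, and Prune2 is above 0 in each condition.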

How the data were processed

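Strand-specific mRNA libraries were sequenced from cultured kidney slices of 2 strains in 8 conditions. The deposited values are raw counts per Ensembl gene, made by the authors from the reads; per the submitters' processing notes, bcl2fastq 2.20.0, FastQC 0.11.8, STAR 2.7.9a, featureCounts 1.5.1 and GRCm38 were used. The annotation release, the strand setting and the handling of shared reads are not given in the sources used here.

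From these counts, symbols and gene models were taken from GENCODE M21 (55141 of 55487 identifiers had a symbol), and CPM from each library's total. Each comparison was fitted on its own 12 libraries with edgeR 4.0.16 (R 4.3.3; TMM scaling, low-count filter, robust quasi-likelihood F test), with Benjamini-Hochberg adjustment over all genes tested and a threshold of 0.05. Standard errors are the fold change over the root of F, and the 95% intervals use the moderated degrees of freedom. The strain interaction in the fit of normoxia against 24 h controls was checked on simulated data with known changes. Those changes were put into genes with higher counts, and all other genes were equal between groups. The other fits, low counts and changes in most genes were not checked this way. Counts alone limit precision at the lowest levels, at 26 to 80 counts for Gcnt1 in DBA/2J normoxia.

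Gcnt1, the gene lists and the tests were chosen with earlier results of these data known. Named genes are Gcnt1, its enzyme family, up to 3 called members per list and comparison by size of change, the adjacent tested genes with up to 4 that passed per comparison, and the 5 closest profiles; a few genes that this rule names are not reported here. Profiles over DBA/2J alone, and profiles without normoxia, were added after seeing the data. Alternatives were DESeq2 1.42.0, other scalings, no filter, 1 fit of 48 libraries, no mitochondrial genes, a replicate block and leaving out each library.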

Additional observations from a re-analysis of the deposited data

Results flagged for a closer look

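Gcnt1 moved in opposite directions in the 2 strains in 3 comparisons, and within each strain the libraries of the 2 conditions did not overlap. The log2 changes differed by -7.57 from 24 h controls to normoxia, by -6.11 from 6 h controls to normoxia, and by 8.23 from normoxia to normoxia-hyperoxia. The 3 share the normoxia libraries, and these differences were not tested because the gene was chosen on them.

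In the response to normoxia against 24 h controls, the interaction with strain passed edgeR's quasi-likelihood test for 12 of 66 glycan genes and 2 of 7 neighbours, where 17% of all genes passed. In 1 fit of 48 libraries it passed for 6 of the glycan genes. Of the glycan genes, those with a positive log2 interaction included Galnt3 (1.57), B3galnt1 (1.01), St3gal3 (0.85), Slc35d1 (0.76), Uap1 (0.75), Galnt1 (0.70), Gcnt2 (0.53) and B4galt1 (0.53). It was negative for Chst2 (-1.18), St3gal4 (-0.75) and Slc35a3 (-0.33). Of the genes next to Gcnt1, Prune2 had -2.91 and Rfk -0.34. Leaving out 1 library at a time, the call held in 7 of 12 fits for Slc35a3, 9 for Slc35d1, 10 for B3galnt1 and 11 each for Chst2 and Gcnt2, the last of which was lost without DBA/2J control 24 h replicate 3 (adjusted p = 0.0681).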

How the results depend on the processing

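No setting reversed a log2 strain difference, or a change with time or oxygen, of Gcnt1, and no drug test of Gcnt1 passed in any setting (lowest adjusted p 0.399, and 0.637 leaving out a library). Scaling by tubule markers was not among these settings. On that scale the DBA/2J mean was the lower one in every condition, for example 20.2 against 40.6 in 24 h controls. Total counts alone shifted the median of all genes by -0.33 to 0.26. With them the Gcnt1 change from 6 to 24 h was -2.17 in C57BL/6J and -0.77 in DBA/2J, and normoxia against 24 h controls 3.82 in C57BL/6J. Gcnt2 in normoxia against 24 h controls (0.10) became -0.18, Gcnt4 in 24 against 6 h controls (-0.15) 0.060, and Gnaq 0.0068 in 6 h controls and 0.0112 in normoxia-hyperoxia. CPM of Gcnt1 with TMM factors was 20.002 in C57BL/6J cyclosporin A 24 h and 27.6 in DBA/2J control 24 h; without mitochondrial genes it was 23.1 in C57BL/6J cyclosporin A 24 h, 407 in C57BL/6J normoxia and 39.4 in DBA/2J normoxia-hyperoxia.

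The difference between the strains in the effect of cyclosporin A on Gcnt1 at 6 h (-0.02) was 2e-04 with no filter, 0.0016 in 1 fit of 48 libraries and 0.027 with the replicate block. Glycan interactions (12) numbered 6 in 1 fit of 48 libraries, and 9 to 15 leaving out a library. Genes within 1 Mb that differed in 6 h controls (1) numbered 2 with RLE factors, total counts, DESeq2 or 1 fit of 48 libraries and 3 with no filter; in normoxia-hyperoxia (2) the number was 1 with total counts and 1 in the single fit. Within 2 Mb the counts were 6 of 14 tested in 6 h controls (26.2% of all genes), 5 of 14 in 24 h controls (22.2%), 10 of 14 in normoxia (47.2%) and 4 of 15 in normoxia-hyperoxia (23.7%).

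Replicate numbers recur in every group, and the labels do not say what an equal number shares. Deviations of same-numbered libraries correlated weakly (mean r from 0.0137 to 0.1794 per comparison); at most 5 of 6 pairs passed 0.1, so the number was not taken as a pairing, although replicate 2 had the lowest tubule marker sum in every 6 h group. The replicate block gave 1 glycan call under tunicamycin at 24 h (0 otherwise).

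Leaving out each library in turn gave these ranges for Gcnt1: normoxia against 24 h controls in DBA/2J -4.10 to -3.20 and between strains -8.14 to -7.24; normoxia against 6 h controls between strains -6.70 to -5.81; normoxia-hyperoxia against normoxia in DBA/2J 3.51 to 4.41 and between strains 7.89 to 8.79; strain difference in normoxia -7.72 to -6.82. For cyclosporin A at 24 h it gave -0.061 to 0.14 over both strains, -0.11 to 0.037 in C57BL/6J, -0.10 to 0.30 in DBA/2J and -0.078 to 0.32 between them, and at 6 h -0.063 to 0.34, -0.30 to 0.50, -0.084 to 0.48 and -0.33 to 0.47. For tunicamycin at 6 h it gave -0.078 to 0.35 over both strains, -0.33 to 0.050 in C57BL/6J and -0.029 to 0.82 in DBA/2J. Glycan counts in 24 h controls ran from 15 to 31, and neighbour counts from 1 to 2 in 24 h controls, 1 to 3 in 6 h controls and 1 to 2 in normoxia-hyperoxia. Uncalled AC133509.1 ran from -0.28 to 0.21 in 24 h controls, -0.071 to 0.12 in 6 h controls, -0.16 to 0.18 in normoxia and -0.51 to 0.045 in normoxia-hyperoxia, Pcsk5 in 24 h controls from -0.18 to 0.042, and Vps13a in normoxia from -0.18 to 0.017. In 2 alternatives chosen after seeing the data, Gcnt1 per 1000 CPM of tubule markers in DBA/2J minus C57BL/6J under tunicamycin at 24 h ran from -21.99 to 2.94, and leaving out normoxia turned the r of Gcnt1 between the strains from -0.41 to 0.92. The causes of these shifts were not tested.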
